A study of Nicotiana tabacum with 78 samples.

Results

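The spermidine synthase (SDS) genes of tobacco described here are NITAB026467, NITAB041017 and NITAB055952. They are 3 of the 2075 genes in the deposited expression table, and they were chosen here by these identifiers. The table holds only genes called in a root comparison, so their presence in it does rest on root values of these data. The best Swiss-Prot match of NITAB041017 and of NITAB055952 is the spermidine synthase of Nicotiana sylvestris, and the tomato match of both is Solyc05g005710. NITAB026467 instead matches spermidine synthase 1 of Datura stramonium and the tomato gene Solyc04g026030. The deposited gene ontology term of all 3 is spermidine biosynthetic process. Since NITAB041017 and NITAB055952 have the same matches, and the authors' mapping kept reads that fit several places, reads of such close copies may have been divided between them and their separate levels are uncertain to that extent.

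Spermidine synthase transfers an aminopropyl group from decarboxylated S-adenosylmethionine to the diamine putrescine and so makes spermidine, a polyamine that plant cells need for growth. Putrescine N-methyltransferase (PMT) acts on the same diamine, but transfers a methyl group to it, and this is the first committed step towards the pyrrolidine ring of nicotine. PMT is held to have evolved from spermidine synthase, and nicotine is made in roots and moved to the leaves. Removing the flowering top of a tobacco plant (topping) is known to raise alkaloid synthesis in the roots.

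The plants were TN90, an untransformed Burley tobacco cultivar, and 3 transgenic TN90 lines, PMT1, PMT2 and PMT3, in which PMT was suppressed by RNA interference (RNAi). Leaves and roots were taken from untopped plants and from plants topped a day before, which gave 16 groups of 4 genotypes, 2 tissues and 2 treatments. Of 78 labelled samples, 77 could be placed, 4 or 5 in a group, and 1 was not, a PMT2 sample with leaf in its title and root as its tissue tag. The lines differ in transformation event, and any effect of an insertion site cannot be told apart from that of the silencing.

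The labels conflict in places. The tissue tag of 36 samples differed from their title, and the title was followed. Samples titled TN90 are described as PMT1, and here too the title was followed. In 6 plants (PMT2, 4 plants; PMT3, 2 plants) leaf and root are labelled with opposite treatments. The authors' library table lists 77 libraries, of 16299684 to 517291516 reads, with 6 topped PMT2 root libraries against 5 such samples in the labels and 3 topped TN90 leaf libraries against 4. In roots labelled untopped PMT1, none of the 5 PMT genes targeted by the RNAi was 2-fold below untopped TN90, so the targets do not bear out the suppression in that group, which keeps its label below. Among the root libraries of the table, 1 of topped PMT2 mapped at 95.89%, against 75.62% to 88.13% for the other 39. The 4 leaf marker genes above 100 RPKM in every leaf group (chlorophyll a-b binding proteins and ribulose bisphosphate carboxylase small chains, of 6 in the list) lay between 192 and 918 RPKM in leaves, between 2.73 and 6.64 RPKM in topped PMT2 roots and between 1.37 and 14.4 RPKM in the other root groups. NITAB097766 of the list went the other way, with 0.0035 to 0.122 RPKM in leaves and 9.34 to 40.2 RPKM in roots. The ranges of NITAB060686 overlapped, with 1.72 to 8.59 RPKM in leaves and 3.28 to 9.04 RPKM in roots. Whether a leaf library entered the topped PMT2 root mean was not tested, since no expression value of a single library was used.

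Expression is given as RPKM, reads per kilobase of gene model scaled to the number of mapped reads, so that genes of different length can be compared. Every value is the authors' mean over the libraries of a group. No value of a single library was used, so no value below has an SD, no test was run, and no difference could be set against the spread between plants. Ratios are given on the log2(RPKM + 0.1) scale unless plain RPKM is named. A gene is counted as higher or lower where the ratio is at least 2-fold and at least 1 of the groups has 1 RPKM or more. By the study's methods, a gene is in the table if it was called in at least 1 root comparison. A share of its genes is therefore no share of all tobacco genes, and a count of the SDS genes in roots is read against the same count over the table.

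NITAB055952 had the highest level of the SDS genes in all 8 root groups, and NITAB026467 the lowest. In untopped roots, NITAB055952 stood at 37.4 RPKM in TN90, 31.4 RPKM in PMT1, 21.6 RPKM in PMT2 and 18.9 RPKM in PMT3. In topped roots its levels were 73.1, 34.3, 28.1 and 18.2 RPKM in the same order. The topped TN90 roots thus stood alone at the top, and PMT3 was lowest under both treatments.

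NITAB041017 had 20.3, 18.1, 14.2 and 10.6 RPKM in the untopped roots of TN90, PMT1, PMT2 and PMT3. After topping it had 40.9 RPKM in TN90, 23.4 RPKM in PMT1, 21.8 RPKM in PMT2 and 12.3 RPKM in PMT3. The same order of genotypes held in both treatments, but here the topped roots of PMT1 and PMT2 lay above untopped TN90.

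NITAB026467 had 3.65, 3.58, 2.50 and 2.03 RPKM in untopped roots of TN90, PMT1, PMT2 and PMT3. Its levels in topped roots were 9.56 RPKM in TN90, 3.47 RPKM in PMT1, 2.53 RPKM in PMT2 and 1.76 RPKM in PMT3. In plain RPKM, the levels in untopped TN90 and untopped PMT1 roots differed only 1.02-fold, whereas the step from topped to untopped TN90 was 2.62-fold. Whether any of the smaller steps exceeds the spread between plants could not be tested. In these bulk samples, fewer cells that express a gene and less of its RNA per cell cannot be told apart.

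**Figure D1:**
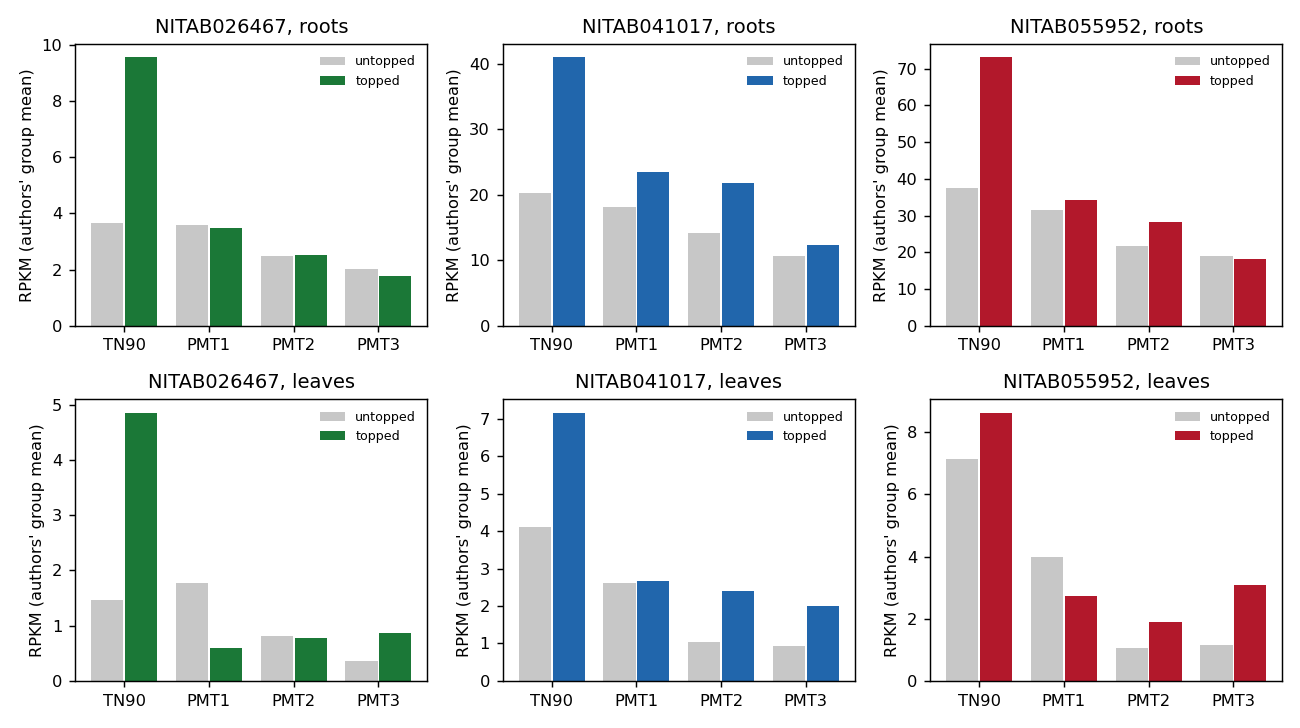
Mean RPKM of the 3 spermidine synthase genes (columns of panels) in roots (upper row) and leaves (lower row) of TN90 and the PMT lines, with untopped plants in grey and topped plants in colour. Each bar is 1 group mean given by the authors, with no error bar because single libraries were not used. The vertical scale differs between panels. Topped TN90 is the tallest bar in all panels, from 4.86 RPKM for NITAB026467 in leaves to 73.1 RPKM for NITAB055952 in roots.

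Leaf levels were lower. NITAB055952 had 7.15, 3.99, 1.05 and 1.17 RPKM in untopped leaves of TN90, PMT1, PMT2 and PMT3, and 8.63, 2.75, 1.88 and 3.09 RPKM in topped leaves. NITAB041017 had 4.11, 2.62, 1.03 and 0.920 RPKM in untopped leaves and 7.16, 2.65, 2.39 and 2.00 RPKM in topped leaves, in that order of genotypes. TN90 had more of both genes than any PMT line in leaves of either treatment.

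NITAB026467, the least abundant in all 8 leaf groups as well, had 1.47, 1.77, 0.810 and 0.361 RPKM in untopped leaves of TN90, PMT1, PMT2 and PMT3. In topped leaves it had 4.86, 0.604, 0.769 and 0.869 RPKM. It was the only SDS gene with a higher level in a PMT line than in TN90 of the same treatment, which was the case in untopped PMT1 leaves. At such levels few reads lie behind a value, and the number of reads per gene was not used here.

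The mix of the genes also differed between the tissues. NITAB026467 made up 4.82% to 7.73% of the summed RPKM of the SDS genes in the 8 root groups and 10.1% to 28.1% in the 8 leaf groups, so these ranges did not overlap. NITAB055952 made up 53.7% to 61.0% in roots and 36.2% to 56.2% in leaves, and NITAB041017 33.0% to 41.5% and 31.3% to 47.4%. In plain RPKM, the ratio of NITAB055952 to NITAB041017 ran from 1.29 to 1.85 in roots and from 0.789 to 1.74 in leaves. The lowest ratio of both tissues was that of topped PMT2 plants.

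**Figure D2:**
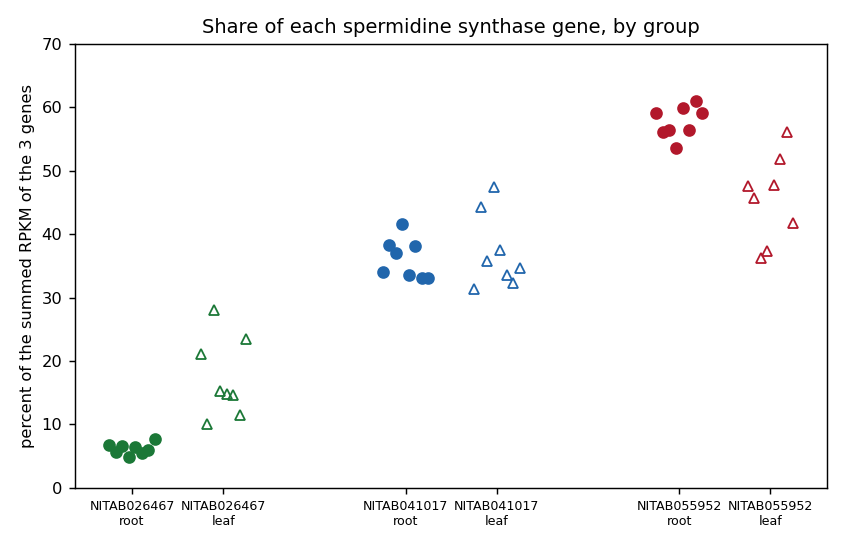
Share of each spermidine synthase gene in the summed RPKM of the 3 genes, in percent, with 1 symbol for each of the 8 root groups (filled circles) and 8 leaf groups (open triangles). The shares of NITAB026467 in roots, 4.82% to 7.73%, all lie below its leaf shares of 10.1% to 28.1%, while the shares of the other genes overlap between tissues.

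On the scale as deposited, the SDS genes had more RPKM in roots than in leaves throughout. NITAB055952 was 5.17-fold to 18.9-fold higher in roots, and NITAB041017 4.84-fold to 12.6-fold, over the 8 combinations of genotype and treatment. Both were thus at least 2-fold higher in all 8, as were 65.2% of the 1669 table genes that reached the RPKM minimum in all 8. The table was selected on root comparisons, and the part of that selection in this share was not tested. For NITAB026467 the ratio was smaller, from 1.92-fold to 5.06-fold, and it fell just short of 2-fold in topped PMT3, topped TN90 and untopped PMT1. The log2 levels of each group were also centred on their median over all genes of the table. No SDS gene was then at least 2-fold higher in roots in all 8 combinations, and 18 of the 24 ratios lay below 0. This median level is not the median ratio of the genes with enough expression, which is called the table median below.

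The first comparison asked how the SDS genes differed between topped and untopped plants. In TN90 roots all 3 had higher levels after topping. NITAB026467 was 2.58-fold higher and NITAB041017 2.02-fold higher, while NITAB055952, at 1.95-fold, lay just under the threshold. This makes 2 of 3 genes higher, against 47.3% of the 2001 table genes with enough expression. The median log2 ratio of those genes was 0.93, close to the 1.01 of NITAB041017 and the 0.96 of NITAB055952, and 70.4% of them had a ratio at or below the 1.37 of NITAB026467. After each group was centred on its median level, no SDS gene passed 2-fold. Of the 3 ratios, that of NITAB026467 lay furthest above the median ratio of 0.93, by 0.44.

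No SDS gene reached 2-fold on topping in the roots of any PMT line. The log2 ratios in PMT1 roots were -0.05 for NITAB026467, 0.37 for NITAB041017 and 0.13 for NITAB055952, beside a table median of 0.47 and 22.1% of genes higher. In PMT2 roots they were 0.02, 0.62 and 0.38, beside a median of 0.13 and 12.7% of genes higher. PMT3 roots gave -0.19, 0.21 and -0.06, beside a median of 0.39 and 27.9% of genes higher. In PMT1 and PMT3 all 3 ratios lay below the table median, whereas in PMT2 those of NITAB041017 and NITAB055952 lay above it. The part of the conflicting treatment labels, most of them in PMT2, was not tested.

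The log2 ratio on topping in TN90 roots exceeded that in a line's roots by 1.35 to 1.56 for NITAB026467. For NITAB055952 the excess was 0.84 against PMT1, 0.58 against PMT2 and 1.02 against PMT3, and for NITAB041017 it was 0.64, 0.40 and 0.80. The median of the same difference over the table was 0.24 for PMT1, 0.58 for PMT2 and 0.26 for PMT3. All of these differences share the TN90 values. Against PMT2 only NITAB026467 lay clearly above the table median, since NITAB055952 equalled it and NITAB041017 lay below it. These differences of differences were not tested.

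**Figure D3:**
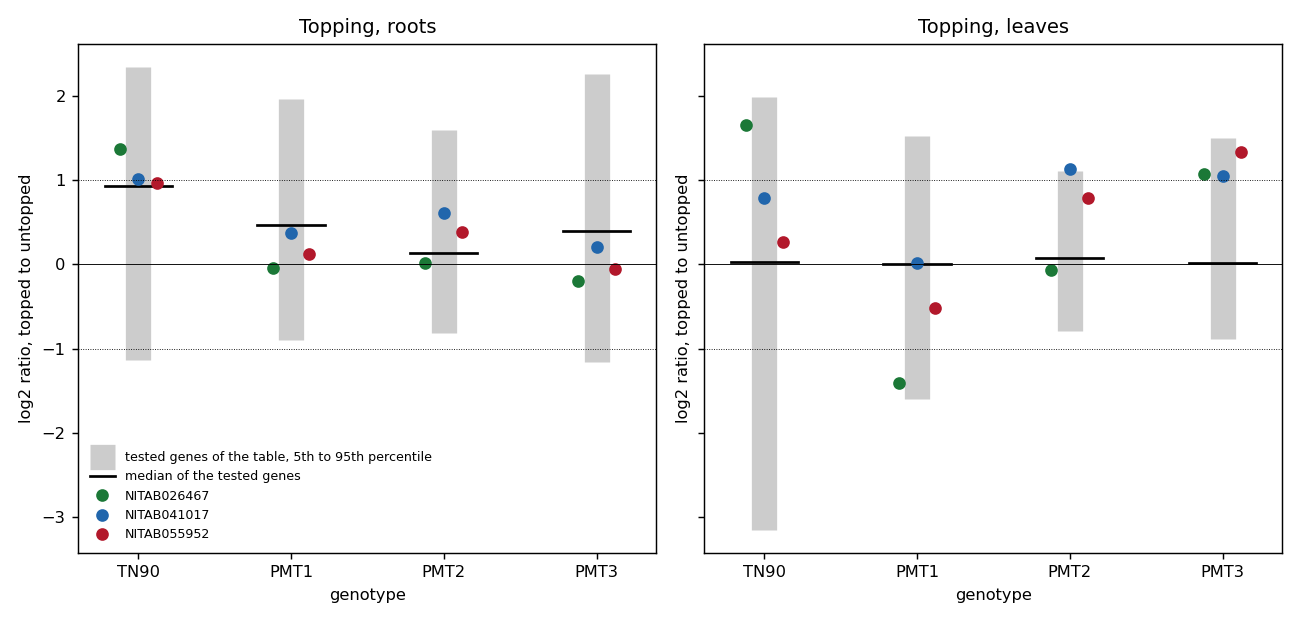
Log2 ratio of topped to untopped plants for the 3 spermidine synthase genes (coloured points) in roots (left) and leaves (right) of each genotype. Grey bars span the 5th to the 95th percentile of the table genes with at least 1 RPKM in either group, black lines are their medians, and dotted lines mark 2-fold. In TN90 roots the points lie between 0.96 and 1.37, at or above the median of 0.93. In PMT1 leaves NITAB026467 stands at -1.41.

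Topping ratios in leaves were less alike among the genes and genotypes. The leaf comparisons played no part in selecting the table. In TN90 leaves NITAB026467 was 3.16-fold higher after topping, NITAB041017 1.73-fold and NITAB055952 1.20-fold. This is 1 of 3 genes past 2-fold, against 16.6% of the 950 genes with enough leaf expression. In PMT2 leaves NITAB041017 was 2.20-fold higher, where 6.01% of the table was higher, and NITAB055952 1.73-fold. In PMT3 leaves NITAB041017 was 2.06-fold and NITAB055952 2.51-fold higher, against 9.65% of the table. NITAB026467 was under 1 RPKM in both groups of leaves of PMT2 and of PMT3 and was not counted there. Over the 12 pairs of gene and genotype, 4 passed. None of these 4 reached 5 RPKM in either group, so a minimum of 5 RPKM left them all uncounted.

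PMT1 leaves went the other way for 1 gene. NITAB026467 was 2.65-fold lower after topping (0.604 against 1.77 RPKM), where 9.56% of the table was lower. It no longer passed with a pseudocount of 1 RPKM (log2 ratio -0.79) or at 3-fold, and with a minimum of 5 RPKM it was not counted. NITAB055952 had a log2 ratio of -0.52 and NITAB041017 of 0.02. None of the SDS genes was higher in topped PMT1 leaves by 2-fold, against 7.96% of the table.

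The second comparison set each PMT line beside TN90 of the same treatment. In untopped roots none of the SDS genes was 2-fold lower, although all 9 log2 ratios were below 0. After each group was centred on its median level, all 3 passed in PMT2, and none in PMT1 or PMT3. The centred ratios in PMT2 were -1.03 for NITAB026467, -1.01 for NITAB041017 and -1.29 for NITAB055952. In roots labelled untopped PMT1, where the PMT genes were not 2-fold lower either, the ratios lay between -0.25 and -0.03, where 3.32% of the table was lower. In PMT2 the ratios were -0.53 for NITAB026467, -0.51 for NITAB041017 and -0.79 for NITAB055952. There 8.93% of the table was lower, and the table median of 0.73 lay on the other side of 0. PMT3 had -0.82, -0.93 and -0.98, with 9.53% of the table lower, so that all its SDS ratios came close to the threshold without passing it.

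In topped roots the SDS genes were further below TN90. NITAB026467 was 2.71-fold lower in PMT1, 3.68-fold lower in PMT2 and 5.18-fold lower in PMT3. NITAB055952 was 2.13-fold, 2.59-fold and 4.00-fold lower in the same lines. NITAB041017 was 1.75-fold and 1.88-fold lower in PMT1 and PMT2, and 3.32-fold lower in PMT3. That is 2 of 3 genes lower in PMT1, 2 of 3 in PMT2 and all 3 in PMT3. Over the table, 7.09% of genes were lower in PMT1, 6.98% in PMT2 and 17.9% in PMT3.

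The medians of the table in these comparisons were near or slightly below 0 (-0.02, 0.11 and -0.40 on the log2 scale). Only 3.54%, 2.48% and 2.44% of the table genes were as low as or lower than NITAB026467 in topped PMT1, PMT2 and PMT3 roots. For NITAB055952 these shares were 6.04%, 4.46% and 3.53%, and for NITAB041017 they were 10.3%, 8.02% and 5.22%. The 3 lines share the topped TN90 value, which also enters the topping ratio of TN90, so the lines are no independent repeats of each other and the 2 comparisons overlap.

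**Figure D4:**
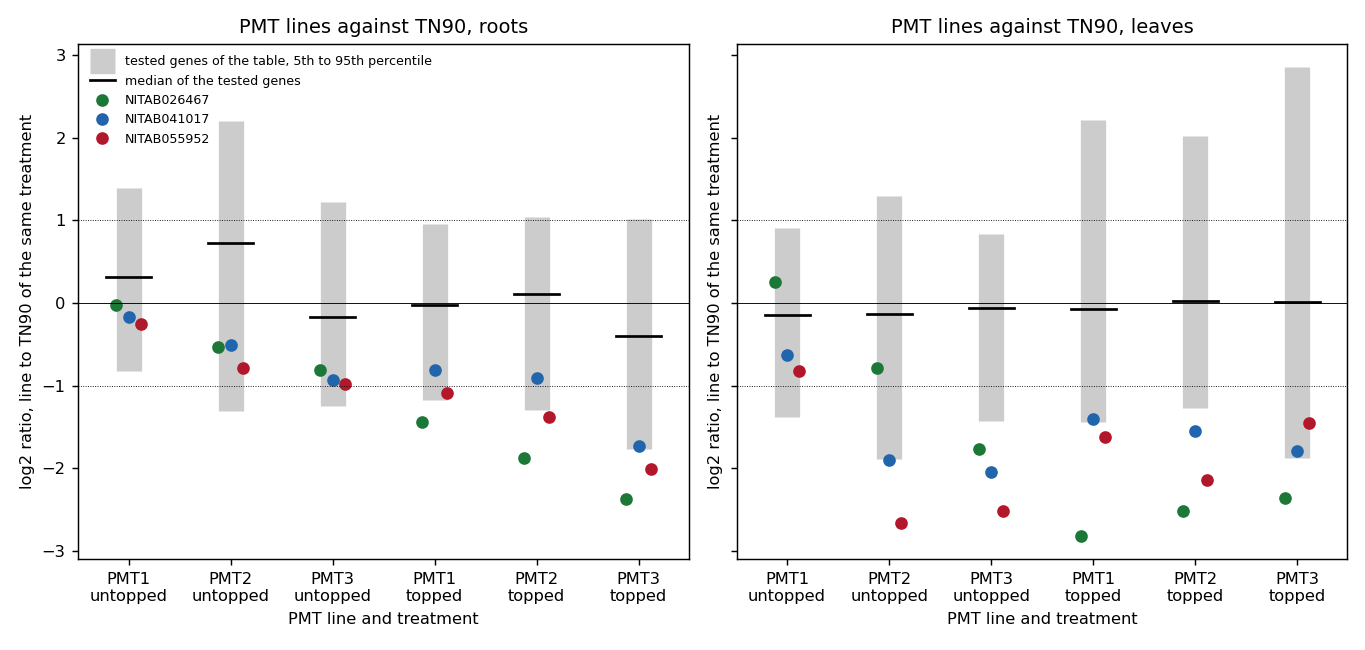
Log2 ratio of each PMT line to TN90 of the same treatment for the 3 spermidine synthase genes (coloured points), in roots (left) and leaves (right). Grey bars span the 5th to the 95th percentile of the table genes with at least 1 RPKM in either group, black lines are their medians, and dotted lines mark 2-fold. In topped roots the points run from -0.81 to -2.37, and in untopped roots none passes the lower dotted line.

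Leaves of the lines had less SDS transcript than TN90 leaves in most comparisons. In untopped leaves NITAB055952 was 6.33-fold lower in PMT2 and 5.71-fold lower in PMT3, and NITAB041017 3.73-fold and 4.13-fold. NITAB026467 was 3.40-fold lower in PMT3 and 1.73-fold lower in PMT2. Thus 2 of 3 genes were lower in PMT2 and 3 of 3 in PMT3, where 19.1% and 7.94% of the table was lower. In untopped PMT1 leaves the log2 ratios were 0.25 for NITAB026467, -0.63 for NITAB041017 and -0.83 for NITAB055952. None of these passed, and 10.2% of the table was lower.

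In topped leaves all 3 genes were at least 2-fold lower in all 3 lines. NITAB026467 was 7.04-fold lower in PMT1, 5.71-fold in PMT2 and 5.12-fold in PMT3. NITAB055952 was 3.07-fold, 4.40-fold and 2.73-fold lower, and NITAB041017 2.64-fold, 2.92-fold and 3.45-fold. Of the table genes, 11.6% were lower in PMT1, 7.89% in PMT2 and 13.9% in PMT3, and the medians lay between -0.07 and 0.02. In all, 14 of the 18 leaf comparisons and 7 of the 18 root comparisons passed 2-fold. With at least 5 RPKM required, the leaf count was 8. The comparisons lost had less than 5 RPKM in both groups, so they were not counted at all. The 3 lines again share TN90.

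The 5 PMT genes, the targets of the RNAi and the other enzyme acting on putrescine, are the check of the labels. Their tomato match is also named spermidine synthase, so 8 genes of the table carry that tomato name. In roots, the summed level of the PMT genes ran from 28.5 RPKM in untopped PMT3 to 842 RPKM in topped TN90. NITAB020971 (annotated PMT 4) had 36.5 RPKM in TN90 roots of untopped plants and 276 RPKM in those of topped plants. In the lines it had, in the same order, 27.9 and 26.4 RPKM in PMT1, 17.8 and 37.7 RPKM in PMT2, and 10.9 and 34.8 RPKM in PMT3. All 5 were at least 2-fold lower in topped roots of each line, by log2 ratios of -5.11 to -3.28 in PMT1, -4.56 to -2.59 in PMT2 and -3.93 to -2.86 in PMT3. Of the table genes, 7.09%, 6.98% and 17.9% were lower in these topped roots. In untopped roots 5 of 5 were lower in PMT3 and 4 of 5 in PMT2, where 9.53% and 8.93% of the table was lower. In roots labelled untopped PMT1 it was 0 of 5, with log2 ratios from -0.83 to 0.31 and a median of -0.20, so there the targets do not bear out the label. This group also enters the topping ratios of PMT1 roots.

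The PMT genes differed from the SDS genes in their size of response. Their log2 ratios on topping were 2.92 to 3.75 in TN90 roots, against 0.96 to 1.37 for the SDS genes. In roots of PMT2 and of PMT3, 4 of 5 PMT genes were at least 2-fold higher after topping, where no SDS gene was. The shares of the table higher on topping were 12.7% in PMT2, 27.9% in PMT3 and 22.1% in PMT1. In PMT1 roots 0 of 5 were higher and 1 was lower, with a median log2 ratio of -0.10, and no SDS gene was higher there either. In leaves 4 of the 5 PMT genes were under 1 RPKM in all groups. NITAB068133 (PMT 3) had 0.227 RPKM in untopped TN90 leaves, and 2.05, 8.10 and 5.56 RPKM in untopped leaves of PMT1, PMT2 and PMT3. Its RPKM was thus higher in the leaves of the lines, where the SDS genes were mostly lower. The silencing construct is under a constitutive promoter. Any reads of the construct that map to NITAB068133 cannot be told apart from reads of the gene itself, and this was not tested.

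In topped roots of the lines, the medians of the genes that supply putrescine lay near those of the table. Of 4 such genes, none was 2-fold lower or higher than topped TN90 in any line. Over the table, 7.09%, 6.98% and 17.9% of genes were lower in PMT1, PMT2 and PMT3. The median log2 ratios of the 4 genes were 0.02 in PMT1, 0.23 in PMT2 and -0.35 in PMT3, beside table medians of -0.02, 0.11 and -0.40. Ornithine decarboxylase, which makes putrescine from ornithine, is represented by NITAB012942 and NITAB023946. NITAB012942 had 16.5 RPKM without and 55.7 RPKM with topping in TN90 roots, and 56.2, 65.1 and 43.6 RPKM in topped roots of PMT1, PMT2 and PMT3. NITAB023946 had 16.5 and 66.8 RPKM in TN90, and 68.1, 79.1 and 49.0 RPKM in the topped lines. N-carbamoylputrescine amidase (NITAB086432) is the last enzyme of the route from arginine to putrescine. Its log2 ratios on topping were 1.25, 1.22, 0.998 and 1.19 in roots of TN90, PMT1, PMT2 and PMT3. That in PMT2 lay just under 2-fold. Arginine decarboxylase (NITAB069254), the first enzyme of that route, had -0.60, -0.82, -0.39 and -0.52. In roots, 3 of the 4 genes were higher on topping in TN90, PMT1 and PMT3, and 1 of 4 in PMT2, where 47.3%, 22.1%, 27.9% and 12.7% of the table was higher in TN90, PMT1, PMT3 and PMT2.

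The aminopropyl donor comes from S-adenosylmethionine (SAM), made by SAM synthase and decarboxylated by SAM decarboxylase. Of 7 genes for these enzymes, 5 were higher on topping in TN90 roots, 3 in PMT1, 0 in PMT2 and 1 in PMT3, beside 47.3%, 22.1%, 12.7% and 27.9% of the table. In PMT1 and PMT3 only 6 of the 7 reached the RPKM minimum. In topped roots 1 of 7 was lower than TN90 in PMT1, 0 in PMT2 and 1 in PMT3, beside 7.09%, 6.98% and 17.9% of the table. That gene was the SAM decarboxylase gene NITAB084207, which had 0.306 RPKM without and 2.57 RPKM with topping in TN90 roots. It had 0.647, 2.75 and 0.507 RPKM in topped PMT1, PMT2 and PMT3 roots, so it was low in 2 of the lines but not in PMT2. The most abundant SAM synthase gene, NITAB038231, had 98.4 and 333 RPKM in TN90 roots and 340, 410 and 204 RPKM in topped roots of the lines. The SAM synthase genes NITAB004477 and NITAB020017 had log2 ratios to topped TN90 of 0.08 and -0.03 in PMT1, 0.25 and 0.28 in PMT2, and -0.74 and -0.93 in PMT3.

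The 6 genes of the methionine and methyl cycle, which renew the methyl donor, were all higher on topping in TN90 roots, with 2 of 6 in PMT1 and none in PMT2 or PMT3. The table shares were 47.3% in TN90, 22.1% in PMT1, 12.7% in PMT2 and 27.9% in PMT3. None of the 6 was 2-fold lower or higher than TN90 in topped roots, where 7.09%, 6.98% and 17.9% of the table was lower in PMT1, PMT2 and PMT3. The methionine synthase gene NITAB056873 had 94.9 RPKM in topped TN90 roots and 98.3, 114 and 49.4 RPKM in PMT1, PMT2 and PMT3. A second such gene, NITAB068658, had 57.3 RPKM in TN90 and 61.0, 68.5 and 31.9 RPKM in the lines. Methylenetetrahydrofolate reductase (NITAB008372) and adenosine kinase (NITAB038396) had log2 ratios of 0.08 and 0.19 in PMT1, 0.25 and 0.10 in PMT2, and -0.67 and -0.62 in PMT3. PMT3 was the lowest of the topped lines for each of these 4 genes, and the median of the whole table was also lowest there.

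Of 5 genes of ornithine and arginine synthesis, 1 was lower than TN90 in topped PMT3 roots and none in PMT1 or PMT2. The table shares were 17.9% in PMT3, 7.09% in PMT1 and 6.98% in PMT2. The gene lower in PMT3 was NITAB065026, annotated as a bifunctional arginine biosynthesis protein. It had 7.03 RPKM in topped TN90 and 10.1, 8.40 and 2.87 RPKM in topped PMT1, PMT2 and PMT3. The acetyltransferase genes NITAB018950 and NITAB046192 and the acetylornithine aminotransferase gene NITAB017041 had log2 ratios on topping of 2.10, 1.45 and 1.23 in TN90 roots. In the same order they were 1.88, 1.53 and 1.17 in PMT1, 1.15, 0.97 and 0.81 in PMT2, and 1.91, 1.46 and 0.97 in PMT3. The study assigns the amine oxidase genes NITAB056529 and NITAB041830 to methylputrescine oxidase, which acts on the product of PMT. Their log2 ratios to topped TN90 were 0.00 and -0.07 in PMT1, 0.49 and 0.51 in PMT2, and -0.43 and -0.66 in PMT3. For the polyamine transporter gene NITAB002823, which moves polyamines across membranes, they were -0.02, 0.35 and -0.67. None of these 3 was 2-fold away from TN90 in topped roots of any line. No gene annotated for spermine or thermospermine synthase, or for other use of spermidine in the list searched, was in the table.

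**Figure D5:**
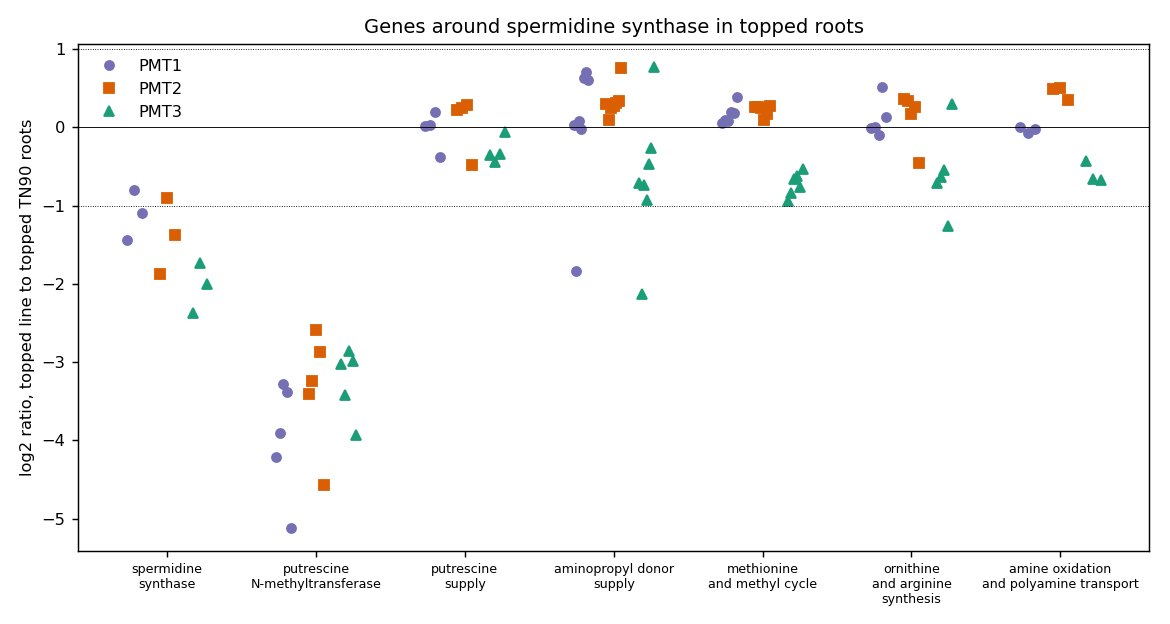
Log2 ratio of topped roots of PMT1 (circles), PMT2 (squares) and PMT3 (triangles) to topped TN90 roots for the spermidine synthase genes and 6 lists of genes around them, with 1 symbol per gene and line. Dotted lines mark 2-fold. The spermidine synthase genes lie between -0.81 and -2.37 and the putrescine N-methyltransferase genes between -2.59 and -5.11, while the putrescine supply genes lie between -0.48 and 0.29.

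The SDS genes varied together over the groups. Pearson's r of log2 levels over the 8 root groups was 0.979 for NITAB026467 and NITAB055952, 0.960 for NITAB041017 and NITAB055952, and 0.913 for NITAB026467 and NITAB041017. Over the 8 leaf groups it was 0.827, 0.943 and 0.841 for the same pairs. Without the topped TN90 roots, the root values were 0.95, 0.907 and 0.793 over 7 groups. These are descriptions of group means that share genotypes and libraries, and for NITAB041017 and NITAB055952 possibly reads.

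The mean root profile of the SDS genes was then set beside the 1585 other genes that reached 5 RPKM in any root group, whose median r was 0.28. Only 13 genes had an r of 0.8 or more. The highest was NITAB083247, which has no Swiss-Prot or tomato match, at 0.940. It had 5.61 RPKM without and 8.75 RPKM with topping in TN90 roots, and 3.69 to 5.28 RPKM in the lines. It was followed by NITAB006095 (a probable WRKY transcription factor, WRKY 54) at 0.923, with 6.87 RPKM in topped TN90 roots and 1.85 to 3.95 RPKM in the lines. The late embryogenesis abundant protein gene NITAB041652 (Lea5-D) had 0.878, and the PMT genes NITAB020971 and NITAB020972 had 0.868 and 0.847. The other 3 PMT genes were at ranks 9, 12 and 13. All 5 PMT genes were thus among the 13.

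Much of this likeness lies in the topped TN90 roots, where all of these genes had their highest root level. Without that group r was 0.802 for NITAB083247 and 0.777 for NITAB006095, but 0.553 for NITAB041652, 0.524 for NITAB020971 and 0.444 for NITAB020972. For the other PMT genes it was 0.395 for NITAB068130, 0.216 for NITAB068133 and 0.314 for NITAB068134. By rank over the 8 groups, Spearman's rho was 0.738, 0.786, 0.548, 0.476 and 0.405 for the 5 genes most like the profile, and 0.357, 0.238 and 0.333 for those other PMT genes, which then ranked 378, 773 and 431 of 1585. The ornithine decarboxylase genes had an r over the root groups of 0.41 for NITAB012942 and 0.36 for NITAB023946. Over all 16 groups r was 0.954 for NITAB083247, 0.315 for NITAB006095 and 0.804 for NITAB041652. For the PMT genes it was 0.872 (NITAB020971), 0.887 (NITAB020972), 0.880 (NITAB068130), 0.471 (NITAB068133) and 0.891 (NITAB068134). The ornithine decarboxylase genes were as high, at 0.878 for NITAB012942 and 0.856 for NITAB023946. N-carbamoylputrescine amidase (NITAB086432) had 0.853 and arginine decarboxylase (NITAB069254) 0.792. This r spans both tissues, and no median over the table is given for it. Over the leaf groups, where most PMT genes were under 1 RPKM, r of these genes ran from -0.921 for NITAB068133 to 0.765 for NITAB083247. It was -0.677 for NITAB006095.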

How the data were processed

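RNA of tobacco leaves and roots was sequenced as stranded total RNA libraries. The authors mapped reads with the RNA-Seq tool of CLC Genomics Workbench to an updated tobacco genome, whose build is not given in the sources used here, and deposited RPKM values as the mean of each of 16 groups. Whether counting used strand is not given there either. The 2075 genes deposited are those the authors called with the exact test of edgeR in a root comparison. A second table deposited by the authors gives the read number and the percent of reads mapped per library. The share mapped to genes, 1 column, was not used. Reads per gene were not used, so only library totals speak to depth, and no interval was computed.

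Groups came from sample titles and treatment labels. Ratios were differences of log2(RPKM + 0.1), counted from 2-fold up with at least 1 RPKM in either group. No test was run. The counting was tested on simulated data. The genes and lists were chosen with earlier results of these data known. Named were the SDS and PMT genes, up to 4 genes of each other list by mean absolute topping ratio in roots, and the 5 genes most like the SDS profile. Alternatives were pseudocounts of 0.01 and 1 RPKM, no minimum or 5 RPKM, 1.5-fold and 3-fold, and centring each group on its median level. Further ones were leaving out PMT2, Spearman's rho, all 16 groups and, chosen after seeing the data, leaving out topped TN90 roots. Software was Python 3.11.15 with pandas 2.3.3, numpy 2.4.6 and matplotlib 3.10.9. The reference gene table matched 0 of the 2075 gene identifiers, so neither positions nor sequences are given.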

Additional observations from a re-analysis of the deposited data

Results flagged for a closer look

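Only the library table gives values of single libraries, and 8 of them stood apart from the rest of their group by Dixon's gap criterion, in 30 sets of a group and a measure. Chance marks about 1 set in 20. By number of reads, the highest library stood apart in topped PMT2 leaves (508326446 reads), in untopped PMT2 roots (138184962 reads) and in untopped PMT3 leaves (517291516 reads). By percent of reads mapped, the lowest library stood apart in topped PMT1 leaves (92.2%), topped PMT2 leaves (90.42%), untopped PMT2 leaves (91.71%) and untopped PMT3 leaves (88.36%), and the highest in untopped PMT3 roots (86.34%). The part of these libraries in the group means of the SDS genes was not tested, since the means cannot be recomputed without them.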

How the results depend on the processing

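The values are group means, so leaving out single replicates was not run. No paired analysis was possible because no value of a single library was used. Of 12 topping pairs in roots, 2 passed as reported, 1 with a pseudocount of 1 RPKM, 4 at 1.5-fold, 0 at 3-fold and 0 after centring. Of 12 in leaves, 4 passed, against 1 with a pseudocount of 1 RPKM, 0 with a minimum of 5 RPKM and 1 at 3-fold. None of these 4 reached 5 RPKM in either group. Of 18 comparisons of the lines with TN90 in roots, 7 passed, against 13 at 1.5-fold, 4 at 3-fold and 10 after centring, which added the 3 of untopped PMT2. Of 18 in leaves, 14 passed, against 8 with a minimum of 5 RPKM, and 9 of the 12 left without PMT2. The leaf comparisons lost at 5 RPKM had too little expression to be counted. Of 3 genes, 2 were higher in roots than leaves in all 8 combinations, against 0 after centring. Centring turned the sign of 23 of the 84 single ratios: 18 of root to leaf (over a table selected on roots), 4 of topping in roots and 1 of topping in leaves. Of these, 15 had passed 2-fold, all of root to leaf, with centred log2 ratios of -1.57 (untopped TN90), -1.14 (topped PMT1), -1.69 and -1.61 (untopped and topped PMT2) and -0.36 (untopped PMT3) for NITAB026467. For NITAB041017 they were -0.55 and -0.92 (untopped and topped TN90), -0.35 and -0.39 (PMT1), -0.072 (topped PMT2) and -0.48 (topped PMT3). For NITAB055952 they were -0.45 and -0.35 (TN90), -0.15 (untopped PMT1) and -0.52 (topped PMT3). The 3 turned root to leaf ratios that had not passed were -2.46 (topped TN90), -2.12 (untopped PMT1) and -2.09 (topped PMT3), all of NITAB026467. No other alternative turned the sign of a single ratio.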
